A study of Mus musculus with 5 samples.

Results

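The comparison sets limb skin against brain by where chromatin was open. It covers 4 libraries of distal limb ectoderm, 2 from forelimb and 2 from hindlimb, and 1 library of forebrain, all from mouse embryos of the CD1 stock. Ectoderm was taken at E14.5 and freed from the mesoderm with trypsin, while forebrain was taken at E13.5 and digested with collagenase. Tissue, stage and dissociation therefore changed together and cannot be told apart. Ectoderm of the distal limb is the sheet that forms epidermis, nails and hair, and the labels name no sorting step for either tissue. Whether the replicates are separate embryos is not stated in the labels. All peaks of the 5 lists were merged where they overlapped by at least 1 bp, which gave 231612 regions. Each region was described by the number of ectoderm lists holding a peak there, from 0 to 4, and by whether the forebrain list held one. A region called in all 4 ectoderm lists but not in forebrain is termed ectoderm-only, and there were 5403 of them (2.33% of all regions). Forebrain-only regions had a forebrain peak and none in any ectoderm list, and there were 76775 (33.1%). Shared regions had a peak in all 5 lists, and there were 15574 (6.72%). The definitions are not symmetric, since the first asks for agreement of 4 libraries and the second rests on 1, so the counts of ectoderm-only and forebrain-only regions are not set against each other as amounts.

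ATAC-seq uses a transposase that inserts adapters into accessible DNA, so a peak marks a stretch of open chromatin such as a promoter, enhancer or insulator. Promoters of widely used genes are open in most tissues and are usually rich in CpG, whereas enhancers lie at any distance from their genes and differ more between cell types. Epidermal identity depends on p63 together with factors of the AP-2, Grainyhead and KLF families. The embryonic forebrain holds dividing progenitors that carry SOX, PAX, OTX and homeodomain factors, and their neuronal progeny.

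Promoters from each class are printed because the classes differed in CpG content, as described further on. Each is the 250 bases before a RefSeq gene start in GRCm38.p6, read 5′ to 3′ on the gene's strand, with every CG dinucleotide in capitals, and each lies whole within a merged region of its class. The first 3 lay in ectoderm-only regions: Krtdap encodes a keratinocyte differentiation-associated protein, Casp14 the caspase of cornifying skin, and Serpinb5 the serpin maspin. They held 4, 8 and 6 CG dinucleotides.
Krtdap, chr7:30787655-30787904, plus strand: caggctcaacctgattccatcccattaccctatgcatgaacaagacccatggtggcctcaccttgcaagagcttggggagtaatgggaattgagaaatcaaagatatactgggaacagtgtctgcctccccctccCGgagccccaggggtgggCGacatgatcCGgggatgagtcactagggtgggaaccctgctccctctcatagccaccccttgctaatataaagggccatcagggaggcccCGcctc
Casp14, chr10:78718294-78718543, minus strand: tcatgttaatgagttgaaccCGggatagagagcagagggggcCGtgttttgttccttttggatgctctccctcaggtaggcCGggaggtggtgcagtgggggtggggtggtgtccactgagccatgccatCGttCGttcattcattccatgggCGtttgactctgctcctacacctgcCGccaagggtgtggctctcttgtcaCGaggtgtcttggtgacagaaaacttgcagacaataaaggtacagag
Serpinb5, chr1:106860925-106861174, plus strand: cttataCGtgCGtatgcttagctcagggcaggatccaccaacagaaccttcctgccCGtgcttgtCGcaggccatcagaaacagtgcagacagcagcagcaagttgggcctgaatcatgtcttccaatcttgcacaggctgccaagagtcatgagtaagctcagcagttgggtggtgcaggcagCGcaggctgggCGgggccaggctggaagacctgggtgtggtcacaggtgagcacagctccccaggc
The next 3 lay in forebrain-only regions: Fabp7 encodes the fatty acid binding protein of radial glia, Neurod1 a proneural bHLH factor, and Hes5 a Notch target that keeps progenitors undifferentiated. They held 4, 22 and 32 CG dinucleotides, so forebrain-only starts covered both CpG-poor and CpG-rich sequence.
Fabp7, chr10:57784673-57784922, plus strand: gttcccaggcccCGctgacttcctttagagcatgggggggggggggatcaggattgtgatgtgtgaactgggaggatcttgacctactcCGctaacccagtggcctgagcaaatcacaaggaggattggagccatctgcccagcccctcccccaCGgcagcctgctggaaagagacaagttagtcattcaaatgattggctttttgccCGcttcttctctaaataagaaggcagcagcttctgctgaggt
Neurod1, chr2:79456637-79456886, minus strand: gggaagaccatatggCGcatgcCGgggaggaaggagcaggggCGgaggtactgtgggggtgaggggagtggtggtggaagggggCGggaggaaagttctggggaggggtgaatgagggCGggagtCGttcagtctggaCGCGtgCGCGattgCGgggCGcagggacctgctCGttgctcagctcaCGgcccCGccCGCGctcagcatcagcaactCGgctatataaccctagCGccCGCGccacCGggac
Hes5, chr4:154960673-154960922, plus strand: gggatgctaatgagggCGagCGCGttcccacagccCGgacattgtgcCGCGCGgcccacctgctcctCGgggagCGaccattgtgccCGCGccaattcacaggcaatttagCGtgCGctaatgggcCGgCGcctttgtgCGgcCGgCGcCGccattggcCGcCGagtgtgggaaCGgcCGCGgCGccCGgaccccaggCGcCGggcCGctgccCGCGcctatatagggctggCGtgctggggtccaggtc
The last, Polr2a, encodes the largest subunit of RNA polymerase II. It lay in a shared region and held 23.
Polr2a, chr11:69758634-69758883, minus strand: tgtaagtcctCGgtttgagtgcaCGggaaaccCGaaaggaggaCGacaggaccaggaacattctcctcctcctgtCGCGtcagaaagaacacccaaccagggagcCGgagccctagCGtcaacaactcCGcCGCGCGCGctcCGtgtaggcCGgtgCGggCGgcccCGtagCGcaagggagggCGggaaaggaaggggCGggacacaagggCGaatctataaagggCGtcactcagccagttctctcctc

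The deposited lists held 51510 to 78147 peaks per ectoderm library and 120297 in forebrain, with median widths of 256 to 284 bp and 378 bp. They hold no read totals, so depth is not known here, and a missing peak is a site below the authors' threshold and not proof of closed chromatin. In tissue pieces, fewer cells of a type and less accessibility per cell cannot be told apart. Markers fitted the labels in part. Over all 21883 protein-coding genes, 66.0% had a peak within 1 kb of a start in forebrain and 52.9 to 61.4% in the ectoderm libraries, and the marker counts are read against these shares. Peaks stood within 1 kb of a start for 28 of 29 forebrain progenitor factors in forebrain, against 14 to 19 in the ectoderm libraries. The start of Krt5, a basal keratin, had a peak in 3 ectoderm libraries and not in forebrain, while Krt14, its partner, had no start peak in any library. Of 12 blood and immune markers, 7 had a start peak in forebrain and 2 to 3 in the ectoderm libraries, in each case a lower share than that of all genes. Of 10 endothelial markers the numbers were 8 and 4 to 7, and of 16 limb mesenchyme markers 12 and 5 to 10. What cells other than the labelled tissue add to either class was not tested.

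The more ectoderm libraries held a region, the more often forebrain held it too. Of regions in 1 ectoderm list, 12.7% also had a forebrain peak. The share was 38.0% for regions in 2 lists (7029 of 18515), 7757 of 14646 in 3 and 74.2% in all 4 (exact Clopper-Pearson 95% interval 73.6 to 74.8%, n = 20977). These intervals, here and below, cover counting error only. Shares differed with position. Of regions in all 4 ectoderm lists, 98.1% of those with their strongest summit within 1 kb of a gene start had a forebrain peak, against 53.1% of those farther away. Among regions in 1 ectoderm list these shares were 33.1% and 12.1%. No p-value accompanies any of these shares, because forebrain had 1 library and the difference between tissues has no replicate check on that side.

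**Figure D1:**
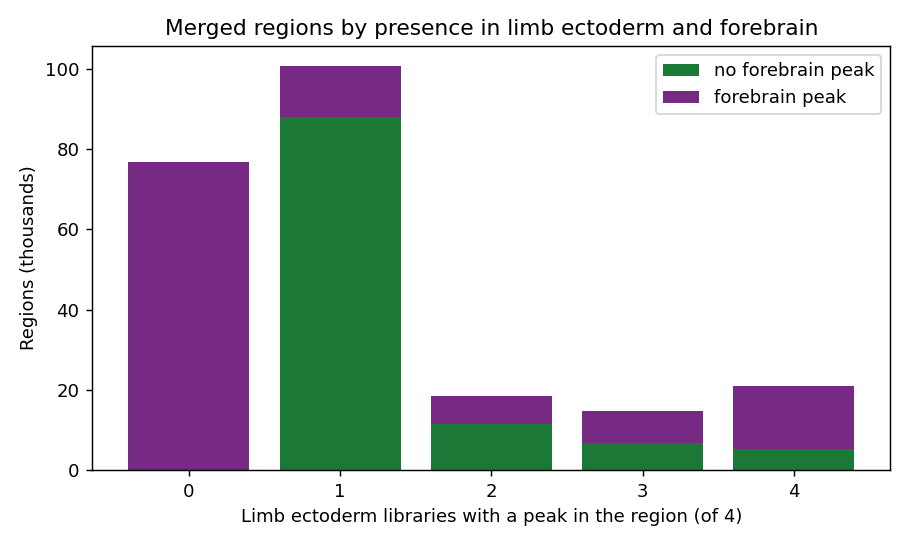
Number of merged regions, in units of 1000, by how many of the 4 limb ectoderm libraries held a peak there, with the part that also had a forebrain peak in purple and the part without in green. The bar at 0 is made of 76775 regions called in forebrain alone, and the bar at 4 of 15574 shared and 5403 ectoderm-only regions.

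Strength within a list went with sharing. The within-list percentile is the share of a library's peaks with a lower −log10 p, so it ranks a peak only against its own list. Shared regions had a median percentile of 93.0 in forebrain and 86.1 over the ectoderm lists. Ectoderm-only regions lay at 76.1 and forebrain-only regions at 38.1. These 2 values are not alike, since the first class needed a peak in 4 lists and the second in 1. Regions in 1 ectoderm list and not in forebrain lay at 24.2. Regions in all 4 ectoderm lists were put in 5 equal groups by their lowest percentile. From the weakest group to the strongest, the share with a forebrain peak went from 60.4% to 94.8%, and away from gene starts from 49.6% to 72.8%. The forebrain list was cut by percentile into 5 groups of 22865 to 25683 peaks, unequal because of ties. In the weakest group 85.2% of the peaks had no ectoderm peak, against 22.5% in the strongest. In the strongest group 51.2% of the peaks lay in regions of all 4.

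**Figure D2:**
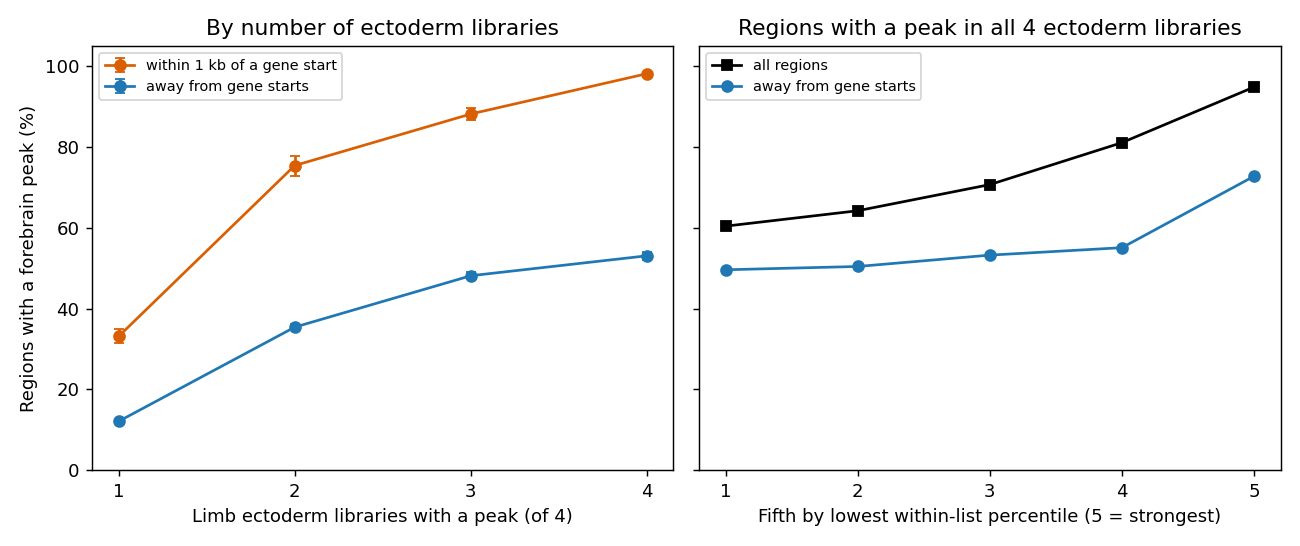
Percent of regions with a forebrain peak, left by the number of ectoderm libraries with a peak (orange, within 1 kb of a gene start, blue, farther away, bars are 95% intervals) and right by 5 equal groups of peak strength among regions in all 4 ectoderm libraries. At gene starts the share reached 98.1% for regions in all 4 libraries, while away from starts it stayed at 53.1%.

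The classes also differed in place and width. Of shared regions, 62.1% lay at a gene start (61.3 to 62.9%), against 3.39% of ectoderm-only (2.92 to 3.90%) and 2.72% of forebrain-only regions (2.61 to 2.84%). The order of the last 2 was reversed when only peaks with a −log10 q of at least 5 were used, at 3.78% and 4.55%. The median distance to the nearest gene start was 0.174 kb for shared, 47.9 kb for ectoderm-only and 65.4 kb for forebrain-only regions. Shared regions were 957 bp wide at the median, ectoderm-only regions 496 bp and forebrain-only regions 328 bp, an order that the merging of at least 5, 4 and 1 peaks favours by itself. Gene deserts, more than 100 kb from any protein-coding gene, held 20.4% of ectoderm-only, 23.7% of forebrain-only and 4.40% of shared regions. The median gap from an ectoderm-only region to the nearest forebrain peak was 6.11 kb, and from a forebrain-only region to the nearest ectoderm peak 4.89 kb. Within 500 bp the shares were 6.53% and 8.91%. These distances have no reference value beside them.

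Across chromosomes the ectoderm-only share was narrow, from 2.11 to 2.60% on the 19 autosomes, with forebrain-only shares of 27.6 to 35.7%. The X chromosome stood apart in forebrain, with 42.2% of its 3360 regions forebrain-only, 2.02% ectoderm-only and 453 of the 3360 shared, a higher share than the 5.33 to 8.95% of the autosomes. Regions called in 1 ectoderm list alone were few on X, which held 0.76% of them, so both shares have a smaller denominator there. The Y chromosome held 175 regions, of which 24 were ectoderm-only (13.7%) and 6 forebrain-only (3.43%). The sex of the embryos in each library is not given in the labels, and its part in these shares was not tested.

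The limbs differed in how many regions their replicates had in common. Both forelimb libraries held 37971 regions, of which 64.3% (63.8 to 64.8%) had a forebrain peak. Both hindlimb libraries held 24719, of which 68.5% (67.9 to 69.1%) had one. Hindlimb replicate 1 had the shortest list, so limb and list length cannot be told apart in these counts. A further 11918 regions were in the other 3 ectoderm lists and not in that one, and 54.5% of them had a forebrain peak. Without it, when a peak was needed in only the other 3 ectoderm lists, the ectoderm-only count was 10839.

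Among the strongest ectoderm-only regions by their lowest within-list percentile, 9 of the first 10 lay more than 1 kb from a gene start, and 2 of the 10 had no protein-coding gene within 100 kb. The first, chr17:13542563-13543327, was such a region, with authors' fold enrichments of 12.5, 10.4, 10.1 and 16.6 in forelimb replicates 1 and 2 and hindlimb replicates 1 and 2. Its lowest within-list percentile was 98.7, and it had no forebrain peak. The others were assigned to Slamf9, Tnfsf4, Crybg3, Dbi, Unc13c, Cldn8, Sema3e and Elf1 as nearest genes. Assignment to the nearest gene is a matter of position and does not say which gene a site acts on. At gene starts the strongest included Cldn8, Serpinb5, Rbbp8, Esrp1, Gramd1c, Il17re, Mdfic, Gja1 and Rab15. With all peaks within 1 kb of any start of a gene pooled, Mdfic and Rab15 did not count as genes with an ectoderm-only start. Cldn8, a tight-junction claudin, had a region at chr16:88563099-88563831, with folds of 13.9 and 16.7 in forelimb and 10.1 and 18.1 in hindlimb. Serpinb5 had folds of 12.8 and 14.7 in forelimb and 10.3 and 15.2 in hindlimb. Esrp1, a splicing regulator of epithelial cells, had 7.20 and 7.31, then 6.57 and 8.09. Each of these 3 regions was called in every ectoderm library and missing in forebrain. For Cldn8 and Esrp1, however, forebrain had a peak outside the region and within 1 kb of a gene end. Gja1, the gap-junction protein connexin 43, had an ectoderm-only region 13 bp from its start. A forebrain peak outside that region and within 1 kb of a start still placed the gene among those called in all 5 libraries.

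The strongest forebrain-only regions were assigned to Kcnq3, 4930444G20Rik, Socs6, Tmtc4, Dmac1, Robo1, Arl4a and Boc, and 2 of the 10 had no protein-coding gene within 100 kb. Kcnq3, a subunit of the neuronal M-type potassium channel, held the first, at chr15:66239003-66240373, with an authors' fold of 14.0 and a within-list percentile of 98.8. Robo1, an axon guidance receptor, held a region with a fold of 14.7. At gene starts the strongest were at Dctn1, Celf3, with 2 regions, Isl2, Smim18, Ankrd6, Pou2f1, Ptprg, Nbeal2 and Btbd17. Celf3, an RNA-binding protein of the nervous system, had folds of 13.6 and 12.8 at its starts. Isl2, a LIM-homeodomain factor of neurons, had 11.6. None of these regions had a peak in any ectoderm library.

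Starts of protein-coding genes were mostly open in both tissues or in neither. Of 21883 genes, 10604 (48.5%) had a peak within 1 kb of a start in all 5 libraries and 6180 had none in any. An ectoderm-only start, called in each of the 4 ectoderm libraries with none in forebrain, was found for 113 genes (0.516%), and a forebrain start peak with no ectoderm one for 842 (3.85%). Of the 10717 genes with a start peak in all 4 ectoderm libraries, 98.9% also had one in forebrain. For genes with 1, 2 and 3 ectoderm libraries the shares were 46.1%, 81.3% and 91.4%, and for those with none 12.0%.

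Ectoderm-only starts, 0.516% of all genes, included 5 of 24 late differentiation genes and 2 of 30 keratin and adhesion genes. They included none of the 18 epidermal transcription factors and none of the 24 ridge and appendage genes. These counts pool all starts of a gene, so a single start of either class can be hidden by another start. Taken singly, a start of Lef1 and of Dst was ectoderm-only, and a start of Erg and of Tal1 forebrain-only. With starts pooled, the genes with an ectoderm-only start on the lists used here were Lamb3, Pkp3, Sprr1a, Casp14, Abca12, Krtdap, Sfn and the melanocyte gene Mlana. Lamb3, a chain of the basement membrane protein laminin-332, had start folds of 7.36 and 5.81 in forelimb and 4.56 and 7.61 in hindlimb. Sprr1a, a precursor of the cornified envelope, had 5.48 and 7.72, then 4.66 and 6.01. Abca12, the lipid transporter of lamellar granules, had 4.62 and 3.58, then 3.23 and 8.08. At each start every ectoderm library had a peak and forebrain had none. Hindlimb replicate 1 had the lowest fold at every ectoderm-only start on these lists. Its list also had the lowest median fold, 3.24 against 3.78 to 3.90 in the other ectoderm lists, and folds of separate lists are not on a common scale. Sfn, the 14-3-3 sigma protein of stratified epithelium, had 6.84 and 5.44, then 3.73 and 5.95. Casp14 had 7.78 in both forelimb libraries, then 4.66 and 10.2, and Krtdap 4.38 and 4.52, then 3.40 and 5.73. Other ectoderm-only starts, chosen after their values were seen, were those of Padi1, an enzyme that deiminates keratins and filaggrin, Cers3, a ceramide synthase of the skin barrier, Trpv3, an ion channel of keratinocytes, and S100a9, a calcium-binding protein. The 113 also held genes better known elsewhere, such as Col3a1, a collagen of connective tissue, and Ptpn6, a phosphatase of blood cells.

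Forebrain-only starts, 3.85% of all genes, were found on several lists. They held 9 of 29 forebrain progenitor factors: Pax6, Otx2, Hes5, Nkx2-1, Gsx2, Six3, Fezf1, Fezf2 and Nr2f1. They held 3 of 14 genes of progenitor structure and signalling, which were Fabp7, Dll3 and Ncan, and 6 of 28 neuron genes, which were Dcx, Neurod1, Neurod2, Neurod6, Gad1 and Slc32a1. The authors' folds at these starts ran from 1.92 at Nr2f1 to 7.94 at Fabp7. Neurod1 had 7.30, Neurod6 6.54, Dcx, a microtubule protein of migrating neurons, 5.38, and Gad1, an enzyme of GABA synthesis, 5.06. No ectoderm library had a start peak at any of them. The blood and immune list had the highest share of the 12 lists, at 33.3% (4 of 12). These were Gata1, Gata2, Klf1 and Hbb-bs, with folds of 3.92, 2.49, 2.73 and 5.34. Of 12 melanocyte and Schwann cell genes there were 2, the melanin enzymes Dct and Tyrp1, at 9.03 and 5.21, and of 10 endothelial genes there was Cdh5.

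Shh, the signal of the limb's posterior margin and of ventral brain, Tfap2c, Plec and Cdsn also had a forebrain-only start. For Shh, Tfap2c, Plec and Cdh5, as for Pkp3 and Mlana, only the outer ends of the gene were known and either end was used, so an inner start can be missed. Actb shows the limit: 1 of its 5 regions was called in all 5 libraries, yet it had no peak within 1 kb of either end. Of 20 housekeeping genes, 17 had a start peak in all 5 libraries.

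**Figure D3:**
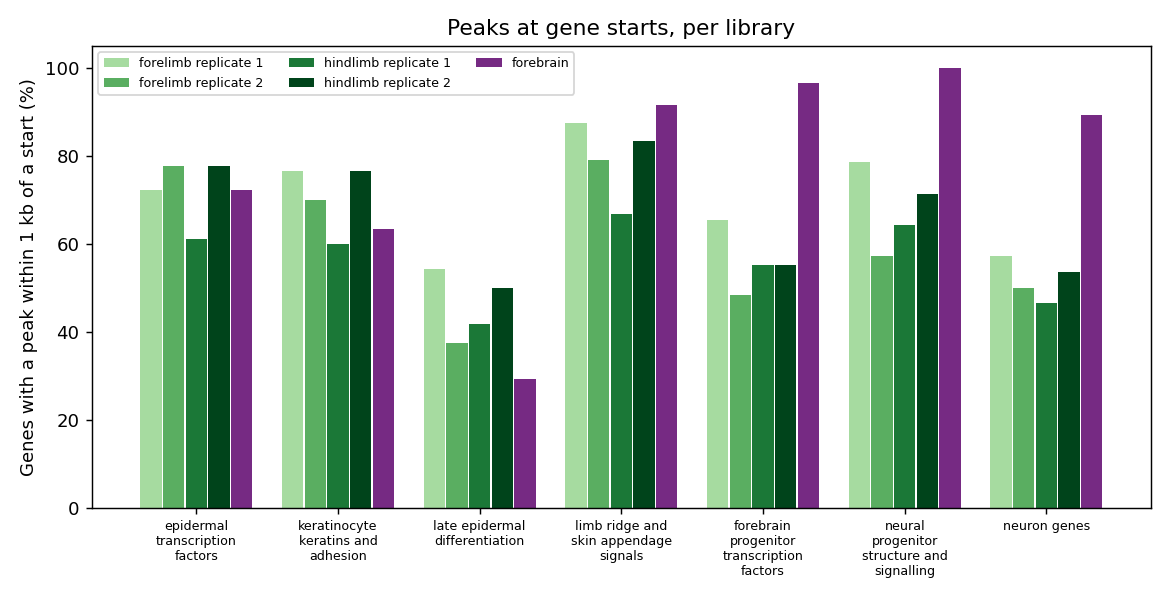
Percent of the genes of 7 lists with a peak within 1 kb of a start, 1 bar per library (greens, ectoderm, purple, forebrain). Late epidermal differentiation genes had 9 to 13 starts with a peak in the ectoderm libraries and 7 in forebrain, of 24, below the all-gene share of the same library in all 5 (52.9 to 61.4% in ectoderm, 66.0% in forebrain), whereas forebrain progenitor factors had 14 to 19 and 28, of 29.

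Late differentiation genes had a start peak in 13, 9, 10 and 12 of 24 cases in forelimb replicates 1 and 2 and hindlimb replicates 1 and 2, and in 7 cases in forebrain. All 4 ectoderm libraries lay above forebrain for this list, although in each of the 5 libraries the list's share was below that of all genes (61.4%, 58.9%, 52.9% and 61.1% in ectoderm, 66.0% in forebrain). Keratins and adhesion genes gave 23, 21, 18 and 23 of 30 in ectoderm and 19 in forebrain, so that hindlimb replicate 1 lay below forebrain. Epidermal factors gave 13, 14, 11 and 14 of 18 and 13, with overlap between the tissues. Neuron genes gave 16, 14, 13 and 15 of 28 in ectoderm and 25 in forebrain, which lay above every ectoderm library. Ridge and appendage genes gave 21, 19, 16 and 20 of 24 and 22.

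Of all regions, 182735 could be assigned to a protein-coding gene within 100 kb, of which 2.35% were ectoderm-only and 32.1% forebrain-only. Genes of the epidermal lists held ectoderm-only regions at a higher share than that. The share was 5.63% for epidermal transcription factors (17 of 302 regions), 8.38% for keratins and adhesion genes (30 of 358) and 7.69% for late differentiation genes (11 of 143). Their forebrain-only shares, 27.8%, 25.1% and 22.4%, lay below that of all genes. Even so, 14 of the 18 epidermal factors had more forebrain-only than ectoderm-only regions. Trp63 alone held 6 of the 17 ectoderm-only regions of the epidermal factors, and 9 of the 18 factors held any. Forebrain progenitor factors had 0.846% ectoderm-only regions (4 of 473) and 47.6% forebrain-only (225). The shares were 1.21% and 44.5% for progenitor structure and signalling genes, and 2.61% and 43.6% for neuron genes. All 29 progenitor factors and 27 of 28 neuron genes had more forebrain-only than ectoderm-only regions, and so had all 16 limb mesenchyme genes, all 10 endothelial genes and 20 of 24 ridge genes. Over all genes the comparison gave 11090 with more forebrain-only and 518 with more ectoderm-only regions. A forebrain-only region needed a peak in 1 list and an ectoderm-only region in 4, which favours this direction. These per-gene counts are therefore not read as a trait of any list.

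**Figure D4:**
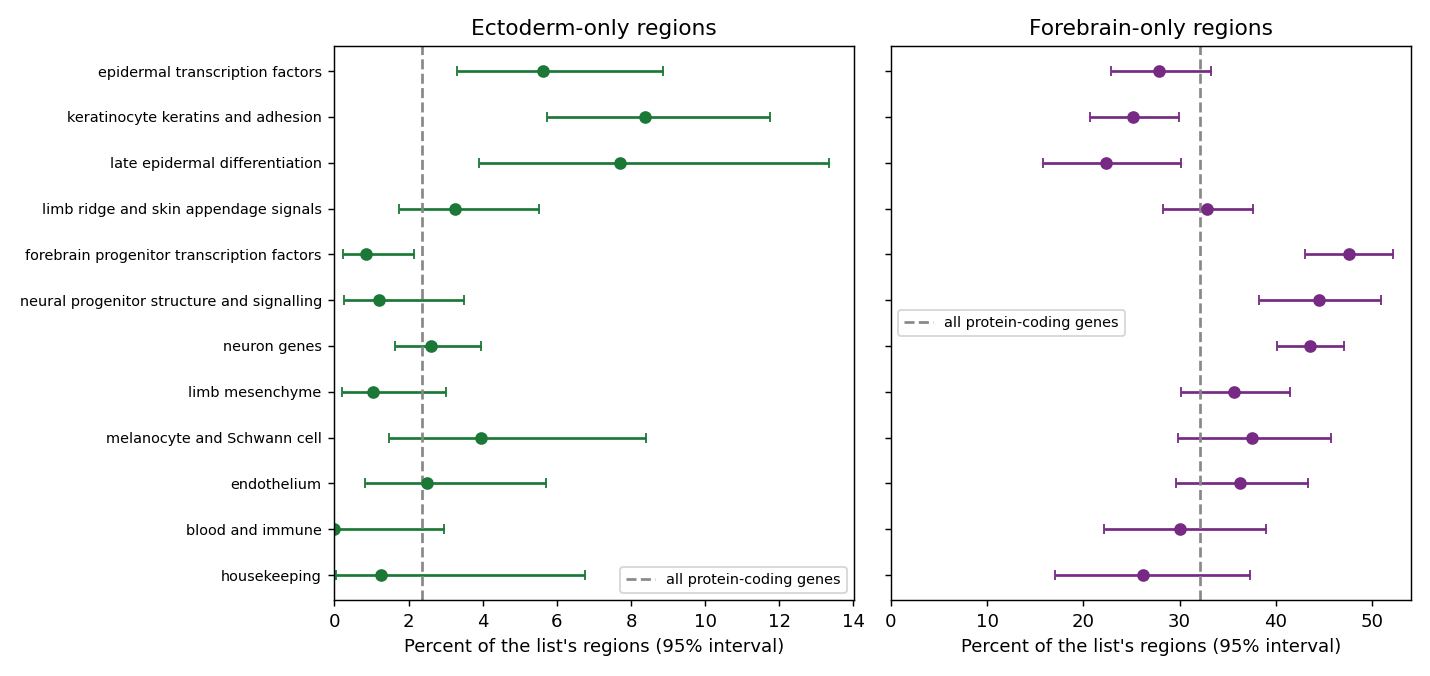
Percent of the regions assigned to each of 12 gene lists that were ectoderm-only (left) or forebrain-only (right), with 95% intervals and the value of all protein-coding genes as a dashed line. Epidermal lists lay at 5.63 to 8.38% ectoderm-only against 2.35% for all genes, and neural lists at 43.6 to 47.6% forebrain-only against 32.1%.

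Trp63, which encodes p63, held 6 ectoderm-only regions among 34, with 10 forebrain-only and none shared. The strongest, chr16:25779971-25780686, lay inside the gene, 96.4 kb from its nearer outer end. Its folds were 11.1 and 12.9 in forelimb and 7.38 and 17.7 in hindlimb. A region outside the gene, chr16:25624041-25624933, was 59.1 kb from an end and had folds of 6.96, 9.09, 6.21 and 8.44. The other 4 lay inside the gene, and folds in them ran from 2.93 to 12.4. Within 1 kb of an outer end a peak was called in 1 ectoderm library and not in forebrain. Inner start sites of Trp63 are not known here, so whether any of the 6 regions covers one was not tested. Grhl2, a Grainyhead factor of epithelia, had 2 ectoderm-only regions, the stronger at chr15:37197887-37198628 with folds of 9.96, 11.4, 6.85 and 11.8, and a peak near an outer end in all 5 libraries. Grhl3 had 2 ectoderm-only against 1 forebrain-only region. Tfap2a, an AP-2 factor, had 2 and 8, Klf4 1 and 9, and Klf5 0 and 9.

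On the keratin and adhesion list, Lama3, a laminin chain, had 3 ectoderm-only regions among 39. Dst, a plakin, had 3 among 75, and the desmosomal genes Perp and Pkp1 had 3 among 18 and 3 among 14. The hemidesmosome gene Itgb4 had none, and Plec, Col17a1 and Lamb3 had 1 each. Perp had a region 1.58 kb from an outer end, at chr10:18846460-18846839, with folds of 6.88, 5.96, 4.83 and 7.55. Dst also held 27 forebrain-only regions among 75, so both tissues had sites of their own there. Itga6, an integrin of basal cells, had none ectoderm-only and 9 forebrain-only. Krt1, a suprabasal keratin, had 2 of each. Krt14 had an ectoderm-only region 2.71 kb from its start, at chr11:100208575-100209173, with folds of 4.02, 3.99, 3.42 and 5.24, and none that was forebrain-only. In Krt14, then, the site called in all 4 ectoderm libraries was not at the start used here.

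Signals of the limb ridge and skin appendages lay close to the background, with 3.26% ectoderm-only (13 of 399) and 32.8% forebrain-only regions. En1, a homeodomain factor of ventral limb ectoderm that is also used in brain, had 2 and 8. Its stronger ectoderm-only region, chr1:120558543-120559486, was 43.6 kb from a start, with folds of 7.57, 7.56, 4.41 and 9.46. Lef1, the Wnt effector needed for hair placodes, had 2 and 15. The summit of chr3:131156404-131156817 was 0.276 kb from a start, with folds of 6.47, 6.64, 3.74 and 6.71. This start had a peak within 1 kb in all 4 ectoderm libraries and none in forebrain. Lef1 as a gene was classed as called in all 5 libraries, because the peaks at all its starts are pooled.

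On the neural side, Sox2, a factor of neural progenitors, had 23 forebrain-only regions among 44, 1 shared and none ectoderm-only, while its start was called in all 5 libraries. Pax6 had 16 of 27, Otx2 15 of 28 and Nkx2-1 15 of 23 forebrain-only. The strongest at Pax6 was chr2:105611923-105612639, with a fold of 6.57 and 56.7 kb from a start. Cdh2, or N-cadherin, had 25 of 45, Ptprz1, a phosphatase of radial glia, 18 of 33, and Gpm6a and Slc1a3 17 each. Among neuron genes the counts were 41 of 91 at Syt1, 30 of 66 at Reln and 26 of 53 at Rbfox3.

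Lists for other cell types are given for comparison. For limb mesenchyme genes the ectoderm-only share was 1.04% and the forebrain-only share 35.6%, for endothelial genes 2.49% and 36.3%, and melanocyte and Schwann cell genes 3.95% and 37.5%. Runx2, a bone factor, had 1 ectoderm-only and 15 forebrain-only regions, Kdr, a VEGF receptor, 0 and 13, and Mitf, the melanocyte factor, 0 and 21. Dct, a melanin enzyme, had 3 ectoderm-only regions although its start was forebrain-only. Of the 123 regions of blood and immune genes none was ectoderm-only (upper limit 2.95%) and 30.1% were forebrain-only, with 16 at Runx1 and 11 at Ptprc. Housekeeping genes had 1.25% and 26.2%.

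Genes with at least 20 regions were also ranked by share, a rule added after values were seen. There were 2424 such genes. By ectoderm-only share, Sfi1 (22.0%), Cwc22 (21.5%) and Zfp970 (21.4%) came first, with 3, 2 and 0 forebrain-only regions and starts called in every library. Cwc22 and Sfi1 have near-identical copies in the mouse genome, so the reads behind their peaks are uncertain in origin, and how the authors' mapping treated them was not tested. Then came Sptlc3, a subunit of serine palmitoyltransferase, with 5 of 26 regions and an ectoderm-only start. Its strongest start region, chr2:139493779-139494333, had folds of 15.1 and 10.3 in forelimb and 6.76 and 17.6 in hindlimb. Egfr, the receptor of epidermal growth factor, had 7 of 39, and Trp63 6 of 34. At Egfr the region chr11:16660165-16660893, 91.6 kb from a start, had folds of 7.83, 10.0, 8.82 and 13.6. Fry had 8 of 51, Gja1 4 of 26 and Ptpn14, a phosphatase of the Hippo pathway, 4 of 22. By forebrain-only share Aff2 (17 of 22), Diaph2 and Nid2 (15 of 21 each) led, with Epha5, an ephrin receptor, at 29 of 43, Zeb2, a factor of neural crest and interneurons, at 22 of 34, and Fyn, a kinase, at 31 of 48. Aff2 and Diaph2 lie on the X chromosome, where forebrain-only regions made up a larger share throughout.

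Hairpins of microRNAs were examined on a short list that was added after values were seen. The miR-200 family, miR-205 and miR-203 are enriched in epithelia, and miR-9, miR-137, miR-128 and miR-219 in the nervous system. Mature sequences from RefSeq are shown 5′ to 3′ with the seed, bases 2 to 8, in capitals, because the family members at separate loci share it. miR-200b, miR-200c and miR-429 have the same seed, and miR-200a and miR-141 another.
miR-200b-3p: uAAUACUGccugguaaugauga
miR-200c-3p: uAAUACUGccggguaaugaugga
miR-429-3p: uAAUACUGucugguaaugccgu
miR-200a-3p: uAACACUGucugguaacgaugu
miR-141-3p: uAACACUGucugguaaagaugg
miR-205-5p: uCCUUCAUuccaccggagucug
miR-203-3p: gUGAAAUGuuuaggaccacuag
miR-9-5p: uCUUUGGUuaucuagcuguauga
miR-137-3p: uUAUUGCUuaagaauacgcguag
Of 1005 hairpins, 41 (4.08%) had an ectoderm-only region within 10 kb and 478 (47.6%) a forebrain-only one. Of the 7 epithelial hairpins 6 had an ectoderm-only region and 3 a forebrain-only one. Of the 8 neural hairpins none had an ectoderm-only region and 5 had a forebrain-only one, a share near that of all hairpins. Neighbouring hairpins share regions, so these are 3 epithelial loci with an ectoderm-only region and not 6 independent ones.

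Mir205 had 3 ectoderm-only regions within 10 kb and none that was forebrain-only. The nearest, chr1:193508279-193508636, was 749 bp from the hairpin, with folds of 4.0 and 3.35 in forelimb and 5.82 and 7.30 in hindlimb. The next, chr1:193510041-193510443, had 7.20, 6.27, 4.61 and 7.22. The third, chr1:193514329-193514877, had 5.05, 4.59, 6.35 and 7.79. In the first and the third both hindlimb libraries lay above both forelimb libraries, though folds of separate lists are not on a common scale. Mir200c and Mir141 lie side by side on chromosome 6, and share the ectoderm-only region chr6:124718721-124719089, 331 bp from the Mir200c hairpin, with folds of 4.79, 3.96, 3.43 and 6.03. Mir200a, Mir200b and Mir429 lie together on chromosome 4 and share chr4:156059094-156060389, with folds of 9.91, 9.24, 5.58 and 11.2. A weaker forebrain-only region, with a fold of 3.75, lay 8179 bp from Mir200b. The Mir203 hairpin lay inside a shared region and had neither kind.

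The 3 genes for miR-9 gave forebrain-only regions at each locus: 5 within 10 kb of Mir9-1, 5 of Mir9-2 and 7 of Mir9-3. The strongest at Mir9-3, chr7:79504645-79505079, was 185 bp from the hairpin with a fold of 8.52, and the strongest at Mir9-1, chr3:88214146-88214632, was 966 bp away with 8.44. At Mir137 a forebrain-only region, chr3:118433713-118434106, lay over the hairpin with a fold of 2.97, and the next region, 187 bp away, had a peak in 2 ectoderm libraries and not in forebrain. Mir128-1 had no region of any class within 10 kb, and the hairpins of Mir128-2 and Mir219a-1 lay inside shared regions.

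CpG content differed between the promoters of each class. The CpG ratio is the number of CG dinucleotides over the number expected from the C and G content, here in 21262 windows of 300 bases, 250 before and 50 after a start. Its median was 0.802 for the 10063 windows whose start had a peak in all 5 libraries. It was 0.212 for the 117 ectoderm-only windows, 0.363 for the 962 forebrain-only windows and 0.169 for the 6203 with no peak. Median GC content was 62.3%, 52.0%, 54.7% and 46.0% in the same order. The interquartile range of the ratio was 0.133 to 0.350 in ectoderm-only and 0.210 to 0.618 in forebrain-only windows, so the 2 classes overlapped.

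**Figure D5:**
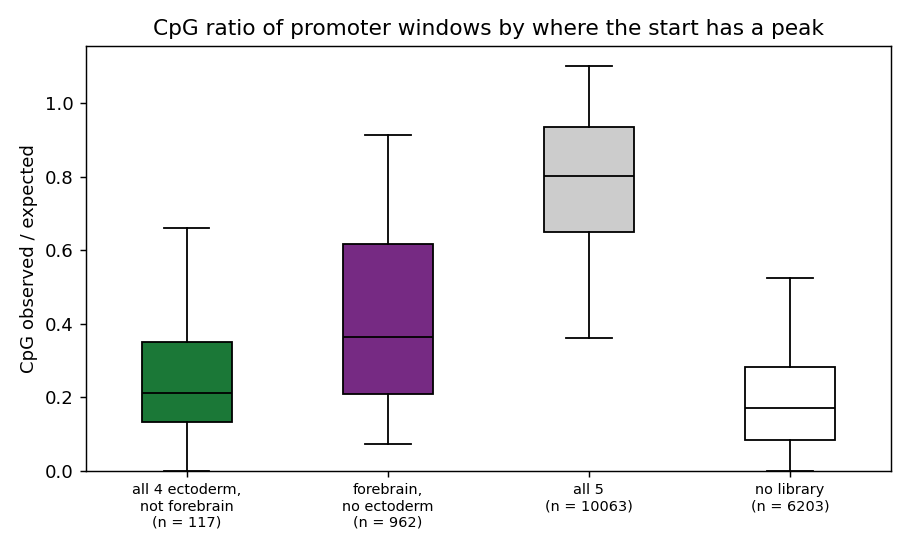
CpG observed over expected in promoter windows of 300 bases, by the libraries with a peak within 1 kb of the start (box, interquartile range, line, median, whiskers, from percentile 5 to percentile 95). Shared starts had a median of 0.802, ectoderm-only starts 0.212, forebrain-only starts 0.363 and starts without a peak 0.169.

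Put the other way, starts with a low CpG ratio were more often open in 1 tissue. Of 743 windows with a ratio under 0.4 and a peak in all 4 ectoderm libraries, 13.3% (99 windows) had none in forebrain. The share was 0.763% of 1310 windows between 0.4 and 0.6 and 0.0984% of 8127 at 0.6 or more. Of windows with a forebrain peak, those without an ectoderm one made up 27.8% of 1915, 8.47% of 2138 and 2.53% of 9828. The split by ratio was added after values were seen.

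Motif letters in the same windows, searched on both strands, are a description and no evidence of binding. The AP-1 motif TGANTCA was in 12.8% of ectoderm-only windows (15 of 117), 7.38% of forebrain-only, 3.72% of shared and 6.99% of all windows. Windows of starts with no peak in any library held it in 11.5% of cases, within the interval of the ectoderm-only share (7.36 to 20.3%). The motif is more frequent in windows with less GC, and in those at or below the median GC the shares were 15.7% (14 of 89), 10.7%, 6.18% and 10.2%. Above the median GC they were 3.57% (1 of 28), 2.75%, 2.91% and 3.76%. The E-box CAGATG, a form that proneural bHLH factors bind, was in 16.2%, 19.2%, 9.82% and 14.6%, and in 21.4% of windows with no peak. Above the median GC it was in 18.5% of 400 forebrain-only windows, 8.55% of shared and 9.79% of all, and in 7 of 28 ectoderm-only windows. The ETS motif CCGGAAG went the other way, at 4.27% of ectoderm-only, 4.16% of forebrain-only and 19.6% of shared windows, with 11.6% of all and 2.19% of those with no peak. So did the KLF and SP motif CCGCCC, at 23.9%, 35.9%, 70.2% and 46.2%, with 9.14% where there was no peak. At or below the median GC its shares were 14.6%, 14.2%, 40.3% and 16.9%, and above it 53.6%, 66.25%, 80.1% and 75.6%. The gap between either 1-tissue class and all windows was thus smaller at or below the median GC. The CCAAT motif gave 28.2%, 33.2%, 40.0% and 38.2%. The Grainyhead motif AACCGGTT was in 2 of 117 ectoderm-only, none of 962 forebrain-only and 31 of 10063 shared windows, and in 38 of all 21262. The p63 family motif was in 1, 2 and 45, and in 93 of all. Counts of 1 and 2 windows are too few to set against the share of all windows.

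Other motifs with a bearing on brain or epidermis were in similar shares of both classes when windows of all GC content were pooled. The SOX motif ACAATG was in 7.69% of ectoderm-only and 11.1% of forebrain-only windows, and in 2339 of all 21262. The homeodomain motif TAATTA was in 3.42% and 5.09%, with 4.53% of all, and the AP-2 motif GCCNNNGGC in 17.1% and 18.8%, with 19.9% of all. The 117 ectoderm-only windows set the precision, since 1 window is 0.855% of them. Distal regions, where most of either class lies, were not searched, because no genome was used here.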

How the data were processed

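Per the labels' protocols, ATAC-seq libraries were made from cell suspensions. Tools listed in the submitters' processing notes are MACS2 2.1.1.20160309, Bowtie2 2.3.5, cutadapt 1.16, bedtools and Picard, with build mm10. The authors deposited a peak list per library, so peaks were not called on pooled replicates. Each deposited peak has a score (not used), a fold enrichment at its summit (a ratio over local background) and −log10 of its p and q. The smallest −log10 q was 1.30 to 1.31, which is a q of 0.05. These values belong to their own list and were used to describe, rank or filter within it.

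Peaks of the autosomes and both sex chromosomes were merged with Python 3.11.15 and pandas 2.3.3. A region's strongest summit gave its position. Genes came from RefSeq tables of GRCm38.p6, which give no exons. Start sites were known for 17491 of 21883 protein-coding genes, and either gene end was used for 4392. All 237 entries of 12 gene lists and 156 of their start sites were matched. Named genes were fixed by rule: the 10 strongest regions per direction, overall and at starts, list genes with a start peak in 1 tissue, and the 3 genes with most regions of either class per list. The comparison, lists and motifs were chosen with earlier results of these data known. Some genes under this rule are not reported here. Merging and class counts were tested on simulated data. Alternatives were a −log10 q of at least 5, lists cut to equal length, summit windows of 200 bp, 3 of 4 ectoderm lists, 2.5 kb from a start, 20 kb for assignment, and leaving out each ectoderm library.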

Additional observations from a re-analysis of the deposited data

How the results depend on the processing

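No paired analysis was possible because forebrain has 1 library, so the tissues share only 1 replicate number, and the results come from no test. With a −log10 q of at least 5, ectoderm-only regions numbered 3515 and forebrain-only regions 49277, and 76.7% of all-4-ectoderm regions had a forebrain peak. Forebrain-only regions at starts made up 4.55% and shared ones 70.6%, and 1335 genes had a forebrain-only start. Adhesion genes had 13.1% ectoderm-only regions, against 2.95% over all genes. Progenitor factors, progenitor structure and neuron genes had 67.3%, 59.6% and 54.9% forebrain-only regions, against 41% over all genes. With lists of equal length there were 24075 forebrain-only regions and 193 genes with an ectoderm-only start, and 69.1% of all-4-ectoderm regions had a forebrain peak. Start shares were then 4.36%, 4.34% and 68.4% (ectoderm-only, forebrain-only, shared). Epidermal factors and adhesion genes had 13.3% and 15.7% ectoderm-only regions, against 4.72% over all genes. The 3 neural lists had 38.8%, 36.2% and 28.9% forebrain-only regions, against 18.2% over all genes. Summit windows gave start shares of 8.12%, 6.54% and 65.6%, and starts at 2.5 kb gave 6.44%, 4.77% and 65.5%. With summit windows, forebrain-only shares were 54.2% for progenitor factors and 47.5% for neuron genes, against 34.8% over all genes. With 3 of 4 ectoderm lists there were 12292 ectoderm-only regions and 255 such starts. Then 65.5% of the ectoderm regions had a forebrain peak, and 48.1% of shared regions lay at a start. Epidermal factors and adhesion genes had 10.3% and 16.5% ectoderm-only regions, against 5.37% over all genes.

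Leaving out 1 ectoderm library gave 5615 to 10839 ectoderm-only regions, 67.0 to 73.8% of ectoderm regions with a forebrain peak, and 120 to 219 ectoderm-only starts. Start shares ran from 2.79 to 3.08% for forebrain-only and 49.5 to 61.5% for shared regions. Ectoderm-only shares ran from 6.3 to 10.3% for epidermal factors, 9.2 to 15.8% for adhesion and 8.27 to 13.8% for late differentiation genes. They ran from 2.85 to 5.14% for neuron, 4.26 to 5.59% for melanocyte and 2.70 to 8.02% for endothelial genes. Over all genes the ectoderm-only share ran from 2.72 to 5.18%. Forebrain-only shares ran from 52.5 to 55.3% for progenitor factors, 47.9 to 49.2% for neuron and 33.3 to 38.2% for blood genes. Over all genes the forebrain-only share ran from 35.8 to 37.8%. The 10839 regions, 219 starts and 49.5% came without hindlimb replicate 1. With 1 library left out, an ectoderm-only region needed a peak in the 3 ectoderm lists left, and a forebrain-only region lacked one in those 3. That looser rule favours higher counts of both classes by itself. What else added to these shifts was not tested.

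In all 9 alternatives the 3 epidermal lists and the ridge and appendage list lay above all genes in ectoderm-only share, and the 3 neural lists and the melanocyte and Schwann cell list in forebrain-only share. Lists that crossed the value of all genes were ridge and appendage genes in forebrain-only share (36.9%, 15.8% and 27.6% with a −log10 q of 5, equal lists and 20 kb), neuron genes in ectoderm-only share (5.22% and 5.14% with 3 of 4 lists and without hindlimb replicate 1), mesenchyme and endothelium in forebrain-only share with equal lists (16.9% and 14.1%), and melanocyte genes in ectoderm-only share without hindlimb replicate 1 (4.96%). Endothelial ectoderm-only shares crossed at 1.02% (−log10 q of 5), 4.04% (equal lists), 2.19% (summit windows) and 2.70% (without either forelimb library). Blood genes crossed in forebrain-only share at 35.4% (summit windows) and 38.2% (without forelimb replicate 1). All-gene shares moved with each alternative, so each list was read against the share under the same one. An ectoderm-only region lay near 6 epithelial hairpins in each of the alternatives run. Read depth is not known, and 1 forebrain library limits every statement.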
